A study of Mus musculus with 41 samples.

Results

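Granulocytes sorted from irradiated rectal tumours of mice were compared with granulocytes from untreated tumours, gene by gene. The comparison rests on 12 granulocyte libraries of the 41 in the series, 7 from irradiated and 5 from untreated tumours, and on all 55453 genes that the authors listed for it. MC38-luc, a mouse colon carcinoma line with a luciferase gene, was implanted in the rectum of female C57BL6 mice. The irradiated group received radiotherapy in 5 daily fractions of 5 Gy between days 9 and 13, and the untreated group received none. Tumours of both groups were taken on day 14, the day after the last fraction. Cells positive for CD45 and CD11b were sorted as granulocytes where they were Ly6C+ Ly6G+, as inflammatory monocytes where Ly6C+ Ly6G-, and as tumour-associated macrophages (TAM) where Ly6C- Ly6G- F4/80+. MC38-luc is 1 transplanted line, and the sources used here do not give the ages of the mice.

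Neutrophils, the main granulocytes of a tumour, mature in the bone marrow through a sequence in which primary, secondary and tertiary granule proteins are made in turn, and they divide only as precursors. Mature cells carry little RNA, live briefly, and depend on the survival protein MCL1. Type I interferon, released after innate sensing of nucleic acids, induces many antiviral genes in most cell types, neutrophils included.

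The values are those of the authors' deposited table of this comparison, which gives each gene a mean normalised count, a shrunken fold change on the log2 scale (log2 change below), a Wald statistic with its p-value, and an adjusted p. A gene was called where the adjusted p was under 0.05, and the sign of the Wald statistic, the effect over its standard error, gave the direction. Single-library values were not analysed here, so depth is unknown, an SD or standard error cannot be given, and whether groups overlap for a gene was not tested. The mean normalised count runs over the libraries of all 3 subsets together, so the granulocyte label could not be checked against marker levels. Between the groups, 4 defining granulocyte markers did not pass the test. The authors' deposited table gives log2 changes of 0.13 for S100a8 (Wald statistic -0.08, opposite in sign), -0.01 for S100a9, -0.36 for the receptor gene Csf3r and 0.67 for Ly6g, with adjusted p from 0.232 for Csf3r to 0.973 for S100a8. Calls were more frequent at high counts, from 4.19% of tested genes with a mean below 10 to 34.9% at 5000 or more. In bulk RNA of sorted cells, fewer cells of a type and less RNA per cell cannot be told apart.

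Of 15679 genes tested in granulocytes, 17.2% were called, 7.32% as higher and 9.9% as lower after irradiation. The median log2 change was 0.80 among the genes that rose and -0.96 among those that fell, against -0.03 over all tested genes in the authors' deposited table. A fold of at least 1 on the log2 scale was reached by 413 higher and 745 lower genes, and of at least 2 by 79 and 259. The Wald statistics were wider than a standard normal, with a robust SD of 2.09 among genes with a mean of at least 50. Divided by that SD, they gave 0 calls by Benjamini-Hochberg adjustment in place of 2699, while 2062 higher and 2619 lower genes had an unadjusted p under 0.05 in the authors' table. That scaling takes most genes as unchanged.

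The gene with the smallest adjusted p of all was Ikbke, which encodes the kinase IKK-epsilon of innate antiviral signalling. The authors' deposited table gives Ikbke a log2 change of 2.19 with a Wald statistic of 9.52 (adjusted p = 2.63e-17). Next came Dnase2a, the lysosomal endonuclease that degrades DNA of engulfed cells, with a log2 change of 1.13 in the authors' deposited table (adjusted p = 1.61e-16). Urate transporter gene Slc2a9 rose by 2.60 and Mfsd7a, a gene of the major facilitator superfamily, by 2.95 on the log2 scale of the authors' deposited table. Mertk, a receptor for apoptotic cells, had a log2 change of 1.58 and Cd38, an ectoenzyme that consumes NAD, of 2.06 in the authors' deposited table. Others among the leading 15 were Dpep2, a membrane dipeptidase gene (1.77), Gas7 (1.36), Aen, a nuclease gene induced by p53 (1.36), Cmklr1, the chemerin receptor (1.37), and Arg1, which encodes arginase (1.28), in the authors' deposited table. Npc2, a lysosomal cholesterol carrier (1.06), Ms4a6d (1.30), Fcrlb (1.49) and Adap2 (1.06) completed that set in the authors' deposited table. Macrophage-associated genes such as Mertk and Arg1 were thus among the leading calls, and markers of macrophages and monocytes are given as whole lists further on.

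Among genes that fell, Coq10b, a coenzyme Q-binding protein of mitochondria, stood first, with a log2 change of -1.43 and a Wald statistic of -8.62 (adjusted p = 3.62e-14, the authors' deposited table). Mcm3, a subunit of the replicative helicase, fell by 1.75 on the log2 scale (adjusted p = 1.29e-12, the authors' deposited table). Vps37b, of the ESCRT-I sorting complex, had -1.69, the glycine-metabolising enzyme gene Gcat -2.56 and Stard4, a sterol carrier, -1.89 as log2 changes in the authors' deposited table. The kinase gene Braf had -1.41, the nucleolar deubiquitinase gene Usp36 -1.62 and Tinf2, of the telomere-capping complex, -2.03 in the authors' deposited table. Log2 fold changes of Srrd (-1.39), Selenon, a selenoprotein gene (-1.30), Rnf11 (-1.11) and Actg1, which encodes gamma-actin (-1.03), lay in the same range of the authors' deposited table. Mcm5 (-1.92), the DNA polymerase subunit gene Pold2 (-1.29) and Stmn1, which encodes the microtubule regulator stathmin (-2.47), completed the leading 15 of the authors' deposited table.

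**Figure D1:**
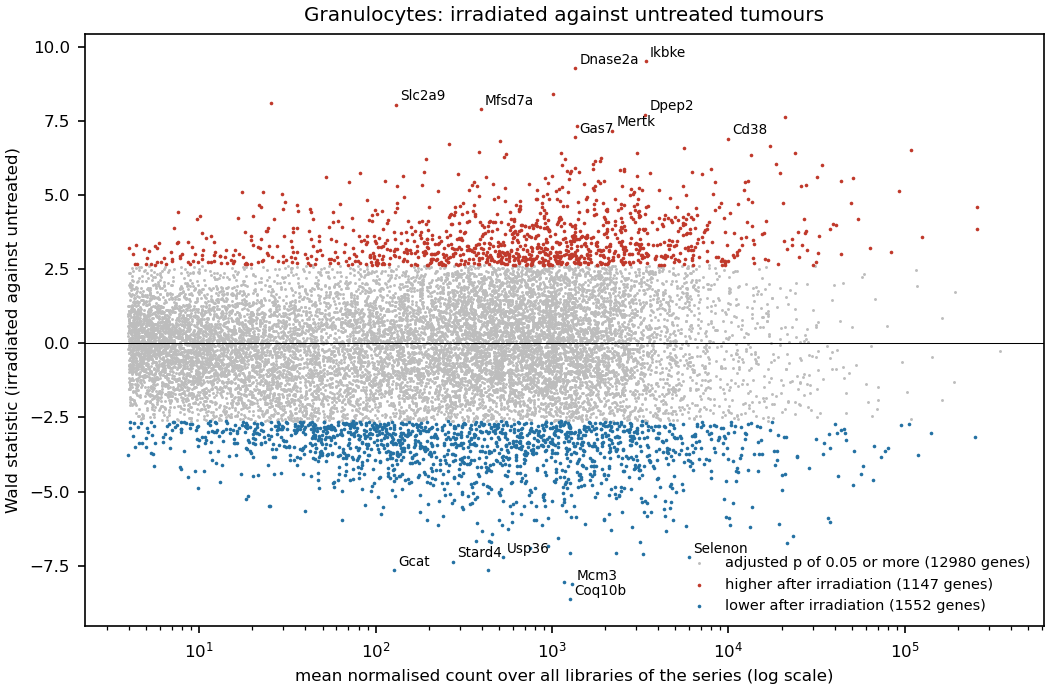
Each point is a gene tested in granulocytes. The x axis gives its mean normalised count over all libraries of the series (log scale) and the y axis its Wald statistic for irradiated against untreated, with 1147 higher genes in red, 1552 lower genes in blue and uncalled genes in grey, and some leading genes named. Ikbke and Dnase2a lie highest, and Coq10b and Mcm3 lie lowest among the named genes.

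Type I interferon response genes rose together. Of 45 tested members of this list, 32 rose, which is 71.1% against 7.32% of all tested genes, and all 45 had a positive Wald statistic. The list's median log2 change was 1.07, against -0.03 over all tested genes, with a range from 0.13 to 2.10 in the authors' deposited table. Mx1, an antiviral GTPase gene, had a log2 change of 2.10 (adjusted p = 0.000159), and Ifit2 and Ifit1, which encode proteins that bind foreign RNA, had 1.97 (adjusted p = 0.000121) and 1.96 (adjusted p = 0.000132) in the authors' deposited table. Ifi205, of the DNA-sensing HIN-200 family, had 1.52 and Bst2, which encodes the virion-retaining protein tetherin, 1.31 in the authors' deposited table. Irf7, the transcription factor that amplifies the response, had 1.34, Rsad2, which encodes viperin, 1.27 and the ubiquitin-like modifier gene Isg15 1.07 in the authors' deposited table. Oas3, an oligoadenylate synthase gene, lay just outside the threshold with a log2 change of 0.83 (adjusted p = 0.0503) in the authors' deposited table.

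The promoters of these genes are known for the interferon-stimulated response element (ISRE), searched here as GAAANNGAAA on both strands of RefSeq windows from 250 bases before to 50 after a gene's start (build GRCm38.p6). Windows were found for 10949 of the 15679 tested genes (69.8%), and 4.01% of these genes held the motif. In the interferon list, 33 of 45 members had a window and 20 of these held it (60.6%), among them 17 of the 26 that rose. Since 73.3% of the list has a window, no comparison is drawn from these shares. The 250 bases before the start are shown for Ifit1 and Bst2, which are among the 3 called members with the smallest p that have 1 window and hold the motif there. Capitals mark the motif. Ifit1 holds it at 2 places, and the matches in Bst2 overlap.
Ifit1 promoter, chr19:34640639-34640888, plus strand: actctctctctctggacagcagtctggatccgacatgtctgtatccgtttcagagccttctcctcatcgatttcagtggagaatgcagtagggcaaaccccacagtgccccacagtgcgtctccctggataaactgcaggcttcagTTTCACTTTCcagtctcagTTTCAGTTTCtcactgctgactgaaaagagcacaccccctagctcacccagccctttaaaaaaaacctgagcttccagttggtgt
Bst2 promoter, chr8:71537473-71537722, minus strand: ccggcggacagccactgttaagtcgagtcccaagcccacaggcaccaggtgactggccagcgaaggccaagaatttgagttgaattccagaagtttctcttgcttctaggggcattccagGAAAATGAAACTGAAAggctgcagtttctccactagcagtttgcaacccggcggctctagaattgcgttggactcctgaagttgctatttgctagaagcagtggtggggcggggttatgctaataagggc

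Antigen presentation by MHC class I moved the same way. Of 21 tested members, 10 rose (47.6%, against 7.32% of all tested genes), with a median log2 change of 0.56 in the authors' deposited table. Class Ib genes H2-Q6 (log2 change 1.99, adjusted p = 1.24e-06), H2-T22 (1.05) and H2-Q7 (1.36) led them in the authors' deposited table. Classical class I gene H2-K1 had 0.62 and B2m, the shared light chain, 0.47 in the authors' deposited table. Near-identical class I genes can share reads, so single values of the H2-Q genes are uncertain. Of 13 tested class II genes 2 rose (15.4%). These were the protease gene Ctss (0.98) and the lysosomal thiol reductase gene Ifi30 (0.64) in the authors' deposited table, which act in peptide preparation. Interferon gamma targets and immune GTPase genes rose in 8 of 29 cases and fell in 1 (27.6% and 3.45%). Guanylate-binding protein genes Gbp6 and Gbp5 had log2 changes of 1.24 and 1.15, and Socs3, a feedback inhibitor of cytokine signalling, had -1.16 in the authors' deposited table.

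Genes of cell division fell. Of 38 tested mitosis genes, 35 fell, which is 92.1% against 9.9% of all tested genes, and the list's median log2 change was -2.00 in the authors' deposited table. Top2a, which untangles chromosomes, had a log2 change of -2.89 (adjusted p = 6.35e-06) and Cdk1, the kinase that starts mitosis, of -2.27 (adjusted p = 3.99e-06) in the authors' deposited table. Smc2, a condensin subunit, had -1.49, the mitotic kinase genes Plk1 and Aurkb -2.57 and -2.06, and the proliferation marker Mki67 -1.12 in the authors' deposited table. S phase and replication genes fell in 26 of 38 cases, with a median log2 change of -1.21 in the authors' deposited table. Uhrf1, which maintains DNA methylation at replication, had -2.31 and Prim1, the DNA primase, -1.53 in the authors' deposited table. The count of higher genes was 0 in both lists, also at an unadjusted p under 0.05 of the authors' DESeq2 test, and 37 mitosis and 32 S phase genes were lower at that level. Of 33 DNA repair genes, 11 fell and 1 rose (33.3% and 3.03%, against 9.9% and 7.32% of all tested genes). Xrcc6, which encodes a Ku subunit of end joining, had a log2 change of -1.29 and the DNA ligase gene Lig1 of -1.10, while Xrcc4, a partner of the end-joining ligase, had 0.45 in the authors' deposited table. Over all subsets, the mean normalised count was 307 for Cdk1 in the authors' deposited table.

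Many promoters of mitosis genes hold the cell cycle homology region (CHR), searched as TTTGAA on both strands, and many of S phase genes a site of E2F factors, searched as GGCGGGAA on both strands. The CHR letters were found in 22 of the 30 mitosis genes with a window (73.3%), among them 20 of 28 that fell, and in 15.0% of all tested genes with a window. The E2F letters were found in 7 of 31 S phase genes (22.6%), all among the 22 that fell, and in 4.72% of all tested genes with a window. Windows cover 78.9% of the mitosis list, so no comparison is drawn there, and 81.6% of the S phase list. Promoters of 3 genes are shown as before, 250 bases up to the start with the motif in capitals, each among the 3 called members of its list with the smallest p that have 1 window and hold it there.
Cdk1 promoter, chr10:69352913-69353162, minus strand: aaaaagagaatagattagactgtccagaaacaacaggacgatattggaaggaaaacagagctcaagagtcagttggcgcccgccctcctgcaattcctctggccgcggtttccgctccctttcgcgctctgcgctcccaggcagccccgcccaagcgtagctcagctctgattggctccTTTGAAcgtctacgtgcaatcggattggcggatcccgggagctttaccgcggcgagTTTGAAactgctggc
Top2a promoter, chr11:99024190-99024439, minus strand: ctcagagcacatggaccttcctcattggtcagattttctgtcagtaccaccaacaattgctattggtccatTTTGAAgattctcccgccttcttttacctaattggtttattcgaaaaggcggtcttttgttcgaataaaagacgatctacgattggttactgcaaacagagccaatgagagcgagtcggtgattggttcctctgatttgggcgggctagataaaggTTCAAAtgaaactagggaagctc
Prim1 promoter, chr10:128014965-128015214, plus strand: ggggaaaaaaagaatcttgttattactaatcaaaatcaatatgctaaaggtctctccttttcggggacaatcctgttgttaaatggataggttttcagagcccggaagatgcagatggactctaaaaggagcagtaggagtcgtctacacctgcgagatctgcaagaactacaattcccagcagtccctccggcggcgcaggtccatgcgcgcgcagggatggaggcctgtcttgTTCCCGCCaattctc

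**Figure D2:**
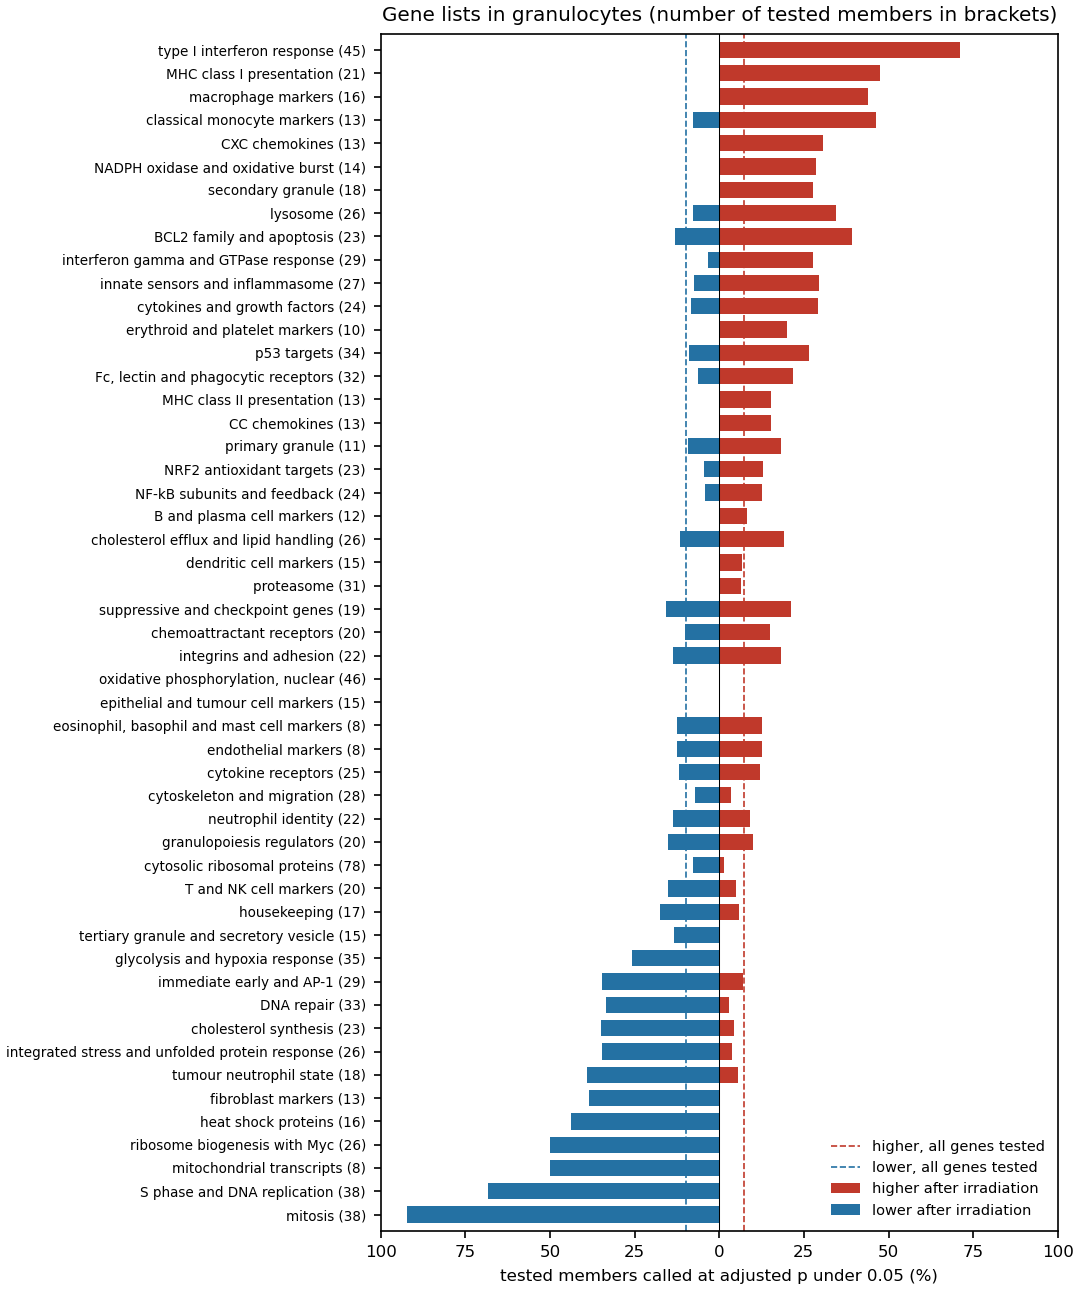
Bars give the percentage of each list's tested members that were called, higher after irradiation to the right in red and lower to the left in blue, with the number of tested members in brackets. Dashed lines mark the 7.32% higher and 9.9% lower among all tested genes. The type I interferon list reaches 71.1% higher and the mitosis list 92.1% lower.

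Targets of p53, a transcription factor that responds to DNA damage, rose in 9 of 34 tested cases (26.5%, against 7.32% of all tested genes). A further 3 fell (8.82%, near the background of 9.9%), with a median log2 change of 0.37 in the authors' deposited table. Phlda3, an inhibitor of AKT signalling, rose by 2.23, Zmat3, an RNA-binding protein gene, by 1.60, Ccng1, which encodes cyclin G, by 1.16 and Ei24 by 0.96 on the log2 scale of the authors' deposited table. Dcxr, a carbonyl reductase gene, had 1.36, and the apoptosis genes Bbc3, which encodes PUMA, and Bax had 1.18 and 0.59 in the authors' deposited table. Plk3 (-0.96), Sesn2 (-0.73) and Btg2 (-0.63) fell in the authors' deposited table. For Cdkn1a, the cell cycle inhibitor p21, and Mdm2, which degrades p53, the authors' deposited table gives log2 changes of -0.30 (adjusted p = 0.458) and -0.10 (adjusted p = 0.783). The same genes rose in TAM, with log2 changes of 2.38 and 1.58 in the authors' deposited table, where 24 of 34 targets rose and 3 fell.

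BCL2 family and apoptosis genes rose in 9 of 23 cases and fell in 3 (39.1% and 13.0%, against 7.32% and 9.9% of all tested genes). Those that fell were the survival genes Mcl1 (log2 change -0.63, adjusted p = 0.000379), Bcl2 (-1.09) and Bcl2l1, which encodes BCL-XL (-0.58), in the authors' deposited table. Besides Bbc3 and Bax, pro-apoptotic Bmf rose by 1.40 on the log2 scale of the authors' deposited table. The survival gene Bcl2a1b had 0.39 (adjusted p = 0.315) in the authors' deposited table, and its near-identical copies can share reads.

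The neutrophil lists were described by stage of maturation. Primary granule proteins are made in promyelocytes, and the list named for them also holds genes of other products, such as Igfbp4, Plac8 and Calr. Of its 11 tested members, 2 rose and 1 fell (18.2% and 9.09%, against 7.32% and 9.9% of all tested genes). Its median log2 change was 0.11 and its median Wald statistic -0.14, opposite in sign. Prtn3, which encodes proteinase 3, had a log2 change of 1.08 and Plac8 1.24, and Igfbp4 had -1.90 in the authors' deposited table. The classical primary granule genes Mpo (-0.23, adjusted p = 0.898) and Elane (0.79, adjusted p = 0.483) had means of only 8.57 and 11.7 in the authors' deposited table. Secondary granule proteins are made in myelocytes, and the list named for them also holds other genes, such as Cebpe, Ltb4r1 and Anxa1. Of its 18 tested members, 5 rose (27.8%), and the median log2 change was 0.88 in the authors' deposited table. The chitinase-like gene Chil3, also on the list of classical monocyte markers, of which 6 of 13 rose, had 2.60 (adjusted p = 0.00222), Orm1, which encodes an acute-phase glycoprotein, 2.70, the collagenase gene Mmp8 2.05, Ifitm6 1.48 and the lysozyme gene Lyz2 0.80 in the authors' deposited table. Lipocalin gene Lcn2 (2.18, adjusted p = 0.155), Ngp (1.89, adjusted p = 0.219), the lactoferrin gene Ltf (1.31, adjusted p = 0.476) and Camp (1.04, adjusted p = 0.646) had large folds without a call in the authors' deposited table. Their Wald statistics ranged from 0.80 for Camp to 2.01 for Lcn2 in the authors' deposited table.

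Among 15 genes of tertiary granules and secretory vesicles, 2 fell (13.3%, against 9.9% of all tested genes). They were the metalloprotease gene Adam8 (log2 change -0.69) and the lipopolysaccharide co-receptor gene Cd14 (-0.85) in the authors' deposited table. The gelatinase gene Mmp9 had 0.34 (adjusted p = 0.673) in the authors' deposited table. Of 22 neutrophil identity genes, 2 rose and 3 fell, near the background shares. Stfa3, a stefin gene of a cluster of close copies that can share reads, had 2.58 (adjusted p = 0.0499) and Ly6c2, also a monocyte marker, 1.82 in the authors' deposited table. Trem1, an amplifier of inflammatory signals, had -0.75, the niacin receptor gene Hcar2 -1.05 and Lmnb1, a lamin gene that is also linked to proliferation, -1.27 in the authors' deposited table. Cxcr2, the receptor that draws neutrophils to CXC chemokines, had -0.20 (adjusted p = 0.773) in the authors' deposited table. Of 20 regulators of granulopoiesis, 2 rose and 3 fell (10.0% and 15.0%), near the background shares of 7.32% and 9.9%. Cebpa, needed to make granulocyte precursors, had 0.77, and Cebpb, which drives emergency granulopoiesis, -0.69 in the authors' deposited table. Id2 had 0.60, Nfil3 -0.86 and Junb -0.48 in the authors' deposited table.

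Genes linked to the state of neutrophils inside tumours fell more often than they rose. Of 18 tested members, 7 fell and 1 rose, against 9.9% and 7.32% of all tested genes, and the median log2 change was -0.32 in the authors' deposited table. Lower members were the receptor genes Cd300ld (log2 change -1.0, adjusted p = 7.28e-06), Tnfrsf26 (-1.15) and Tnfrsf23 (-0.81) in the authors' deposited table. The stress factor gene Atf3 had -0.85, Tgm2, which encodes a transglutaminase, -0.96, the lipid droplet gene Hilpda -0.82 and Jun -0.51 in the authors' deposited table. Icam1, an adhesion molecule of activated neutrophils, had 1.14 (adjusted p = 8.52e-07) in the authors' deposited table. Siglecf, a label of a tumour-promoting neutrophil state and of eosinophils, had -0.17 (adjusted p = 0.844) and Cd274, which encodes PD-L1, -0.33 (adjusted p = 0.328) in the authors' deposited table.

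The NADPH oxidase and oxidative burst list had 4 higher members of 14 tested (28.6%, against 7.32% of all tested genes). These were Cybb and Cyba, the membrane subunits of the oxidase (log2 changes 1.14 and 0.56), the proton channel gene Hvcn1 (1.62) that sustains its charge balance, and the mitochondrial superoxide dismutase gene Sod2 (1.29) in the authors' deposited table. Of the cytosolic subunits, Ncf1 (0.37, adjusted p = 0.251) and Ncf4 (0.32, adjusted p = 0.158) did not pass in the authors' deposited table.

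**Figure D3:**
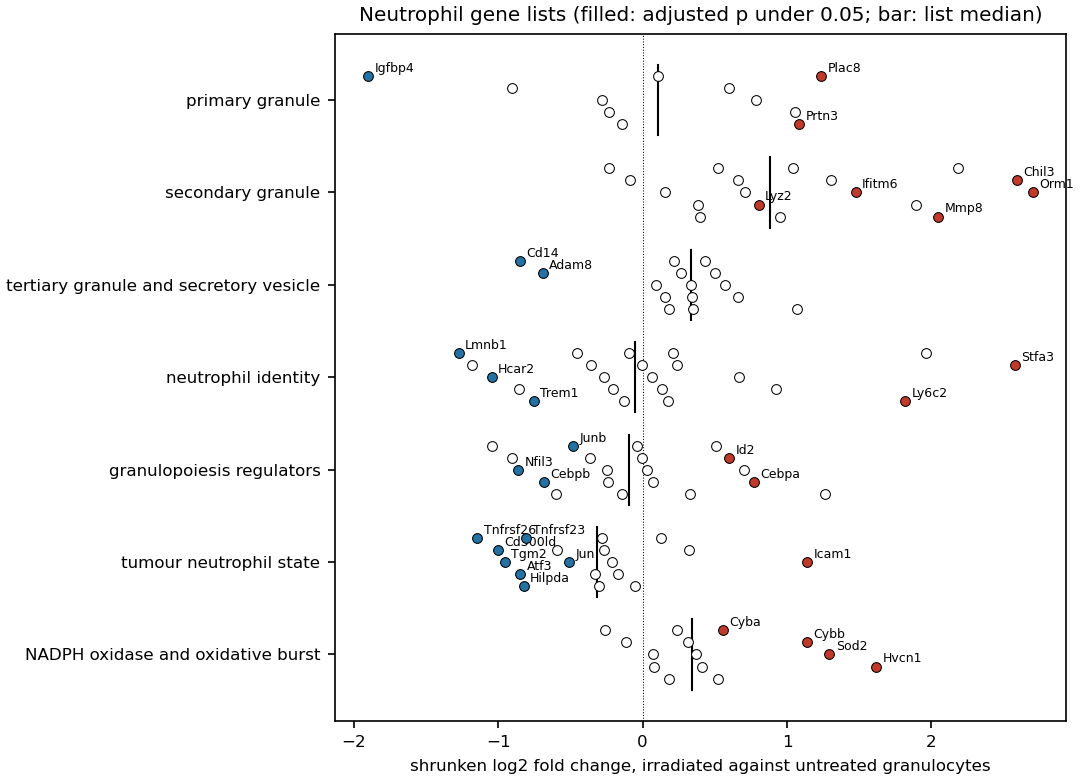
Points are the tested members of the 7 neutrophil lists, placed by the shrunken log2 change of irradiated against untreated granulocytes on the x axis and spread vertically only to separate them. Filled points were called (red higher, blue lower, named), open points were not, and bars mark list medians. The secondary granule list has a median of 0.88, and the tumour neutrophil state list of -0.32.

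Of 24 cytokine and growth factor genes, 7 rose (29.2%, against 7.32% of all tested genes) and 2 fell (8.33%, near the background of 9.9%). Il10, an anti-inflammatory cytokine gene, had the largest log2 change of those called, 2.84 (adjusted p = 5.30e-05), at a mean of 145 in the authors' deposited table. Csf3, which encodes the growth factor G-CSF, had 2.69, Tnfsf10, the TRAIL gene, 1.79, Tnfsf9, the 4-1BB ligand gene, 1.24 and Ebi3, a subunit of heterodimeric cytokines, 1.08 in the authors' deposited table. Tnf and Il6, central inflammatory cytokine genes, had 1.03 and 1.01 in the authors' deposited table. Il1b, which encodes interleukin-1 beta, fell by 0.71 (adjusted p = 0.0205) and Osm, oncostatin M, by 1.02 on the log2 scale of the authors' deposited table. The antagonist gene Il1rn had -0.24 (adjusted p = 0.538) in the authors' deposited table.

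Of 13 CXC chemokine genes, 4 rose (30.8%, against 7.32% of all tested genes). These were Cxcl10 (log2 change 1.32) and Cxcl11 (1.24), interferon-induced attractants of T cells, Cxcl16 (0.83) and Pf4 (1.24), a platelet and macrophage product, in the authors' deposited table. Cxcl2 and Cxcl3, which attract further neutrophils, had -0.67 (adjusted p = 0.112) and -1.0 (adjusted p = 0.125) in the authors' deposited table. Of 13 CC chemokine genes, Ccl5 (1.47) and Ccl9 (0.70) rose (15.4% of the list), while Ccl3 (-0.64, adjusted p = 0.135) and Ccl4 (-0.63, adjusted p = 0.159) did not pass in the authors' deposited table.

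Among 20 chemoattractant receptors, 3 rose and 2 fell (15.0% and 10.0%, against 7.32% and 9.9% of all tested genes), so the lower share is at the background. Cmklr1 and the complement C3a receptor gene C3ar1 (log2 change 1.10) were among the higher ones in the authors' deposited table. The lower ones were Ccr1 (-0.63) and Cx3cr1 (-1.71). Of 25 cytokine receptor genes, 3 rose and 3 fell, near the background. Csf2rb, the shared chain of the GM-CSF receptor, had -0.59, Il1rap, of the interleukin-1 receptor, -0.87 and Tnfrsf1a -0.51, while Il2rg (0.62), Csf1r (0.55) and Ifngr2 (0.29) were higher in the authors' deposited table. Of 27 innate sensors and inflammasome genes, 8 rose and 2 fell (29.6% and 7.41%), the lower share being below the background. Pycard, the inflammasome adaptor ASC, had 0.98 (adjusted p = 2.38e-06), Tlr7 and Tlr9, endosomal receptors of RNA and DNA, 1.29 and 1.98, Nlrc4 0.96 and Casp1 0.58, while Tlr6, a surface receptor, had -0.93 in the authors' deposited table. Fc, lectin and phagocytic receptor genes rose in 7 of 32 cases and fell in 2 (21.9% and 6.25%), the lower share again below the background. Besides Mertk they included the Fc receptor genes Fcgr1 (1.27) and Fcgr2b (0.69), Trem2 (0.98) and the scavenger receptor gene Marco (2.53), and those that fell were Trem1 and Lilr4b (-0.96) in the authors' deposited table.

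Of 22 integrin and adhesion genes, 4 rose and 3 fell (18.2% and 13.6%, against 7.32% and 9.9% of all tested genes). Fermt3, the kindlin that activates integrins in blood cells, had 0.61 and Itga5 0.69, and Itgal, the chain of LFA-1, had -0.73 and Cd44 -0.74 in the authors' deposited table. Of 19 genes linked to suppression of T cells, 4 rose and 3 fell (21.1% and 15.8%). The list's median log2 change of 0.07 and median Wald statistic of -0.02 differ in sign. The arginine-consuming enzyme genes Arg1 (1.28) and Nos2 (1.90), the costimulatory ligand gene Cd86 (0.65) and Lgals9 (0.63) rose, and Ptgs2, which encodes cyclooxygenase 2 (-0.89), and the ectonucleotidases Entpd1 (-0.87) and Nt5e (-1.20) of adenosine production fell in the authors' deposited table.

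Lysosomal genes rose in 9 of 26 cases and fell in 2 (34.6% and 7.69%, against 7.32% and 9.9% of all tested genes). Grn, which encodes progranulin, had a log2 change of 0.99 (adjusted p = 4.93e-06), Psap, which encodes saposins, 0.70 and Lamp1 0.41, and the galactosidase gene Gla had -1.24 and the proton pump subunit gene Atp6v1a -0.65 in the authors' deposited table. Among 23 cholesterol synthesis genes 8 were lower and 1 was higher (34.8% and 4.35%). Sqle, which encodes squalene epoxidase, had -1.68, Cyp51 -1.15 and Lss -1.56, while Nsdhl had 0.60 in the authors' deposited table. In lipid handling, 5 of 26 rose and 3 fell (19.2% and 11.5%), the lower share near the background. Apoe had 1.39, Cpt1a, which brings fatty acids into mitochondria, 0.90 and Pltp 1.45 in the authors' deposited table. Fatty acid synthase gene Fasn had -1.98 and Soat1, which esterifies cholesterol, -0.52 in the authors' deposited table.

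Glycolysis and hypoxia response genes fell in 9 of 35 cases (25.7%, against 9.9% of all tested genes). The glucose transporter gene Slc2a1 had a log2 change of -0.92 (adjusted p = 4.80e-05), Ldha -0.69, the lactate exporter gene Slc16a3 -0.72, Pfkp -0.68 and hexokinase gene Hk2 -0.73 in the authors' deposited table, and Vegfa had -0.08 (adjusted p = 0.899). The count of higher genes was 0 by the authors' DESeq2 test, and 0 at an unadjusted p under 0.05. Of 46 nuclear genes of oxidative phosphorylation 0 were called in either direction, with 1 at an unadjusted p under 0.05 in the DESeq2 test, and log2 changes ran from -0.34 to 0.40. Of 8 tested mitochondrial transcripts 4 fell, mt-Nd2 (-1.09), mt-Cytb (-0.95), mt-Nd4 (-0.69) and mt-Nd1 (-0.69) in the authors' deposited table. Ribosome biogenesis genes with Myc fell in 13 of 26 cases, with the nucleolar genes Ncl at -0.53 and Npm1 at -0.58 and Dkc1 at -0.99 in the authors' deposited table. Of 78 cytosolic ribosomal protein genes, which have many pseudogene copies, 6 fell and 1 rose, below or near the background. Their Wald statistic was negative in 69 cases, with a median of -1.13 against -0.14 over all tested genes.

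Stress genes fell more than they rose. Heat shock protein genes fell in 7 of 16 cases (43.8%, against 9.9% of all tested genes). They included the mitochondrial chaperone genes Hspa9 (log2 change -1.0) and Hspe1 (-0.77) and the endoplasmic reticulum chaperone gene Hspa5 (-0.79) in the authors' deposited table. The inducible cytosolic genes Hspa1a (-0.48, adjusted p = 0.47) and Hspa1b (-0.85, adjusted p = 0.175) did not pass in the authors' deposited table. Genes of the integrated stress and unfolded protein responses included 9 lower and 1 higher among 26 (34.6% and 3.85%). Dnajb9 had -1.26, the serine synthesis gene Psat1 -1.79, Shmt2 -1.26 and Ppp1r15a -0.96 in the authors' deposited table. Among 29 immediate early and AP-1 genes 10 fell and 2 rose (34.5% and 6.9%). Maff (-1.08), Fosl2 (-0.77), Ier3 (-0.78) and Atf3 fell, Fos itself had -0.13 (adjusted p = 0.724) and Zfp36 -0.24 (adjusted p = 0.336), and the monocyte factor gene Klf4 (1.08) rose in the authors' deposited table. NF-kB subunit and feedback genes rose in 3 of 24 cases (12.5%, against 7.32% of all tested genes), Ikbke, Nfkbie (0.80) and Tnip1 (1.20). The subunit gene Nfkb1 fell (-0.94) in the authors' deposited table. Nfkbia, the main feedback inhibitor, had 0.14 (adjusted p = 0.771) in the authors' deposited table.

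Among marker lists of other cells that a granulocyte gate could hold, macrophages and classical monocytes had the largest shares of higher calls. Of 16 macrophage markers, 7 rose (43.8%, against 7.32% of all tested genes), with a median log2 change of 0.56 in the authors' deposited table. Those that rose included Mertk, Apoe, Trem2 (0.98), Folr2 (0.97), the F4/80 gene Adgre1 (0.43) and Csf1r (0.55) in the authors' deposited table. Adgre1 passed only narrowly, its adjusted p rounding to 0.05. The complement genes C1qa (0.54, adjusted p = 0.157), C1qb (0.57, adjusted p = 0.0863) and C1qc (0.38, adjusted p = 0.337), which are defining for macrophages, and Mrc1 (0.13, adjusted p = 0.782) did not pass in the authors' deposited table. Of 13 classical monocyte markers, 6 rose and 1 fell (46.2% and 7.69%). Ly6c2 had 1.82, Ctss 0.98, Ms4a6c 1.02, Chil3 2.60, Ly6a, itself induced by interferon, 1.15 and Cx3cr1 -1.71 in the authors' deposited table. The genes among the interferon, secondary granule, phagocytic, lysosomal, lipid and lead calls that monocytes and macrophages also express moved with these markers, and the markers' part in those results was not tested. Summed marker levels per group were not analysed here.

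Fibroblast markers fell in 5 of 13 cases (38.5%, against 9.9% of all tested genes), with Col1a1 at -1.98, Col3a1 at -2.05 and Pdgfrb at -2.13 in the authors' deposited table. Of 20 T and NK cell markers 3 fell and 1 rose (15.0% and 5.0%), with Gzma at -2.00 and Il7r at 1.29 in the authors' deposited table. In the other lists of cell markers at most 2 members were called, Pf4 and the carbonic anhydrase gene Car2 (1.61) of the erythroid and platelet list, Pax5 (2.56) among B cell markers at a low mean of 5.93, Bst2 among dendritic cell markers, Prg2 (1.87) and Gata2 (-1.68) among those of eosinophils, basophils and mast cells, and Vwf (0.99) and Plvap (-2.14) among endothelial ones, in the authors' deposited table. Vwf passed only narrowly, its adjusted p rounding to 0.05. Of 12 B and plasma cell markers, 9 were higher at an unadjusted p under 0.05. That list's median log2 change was 1.72 in the authors' deposited table. Of 15 epithelial and tumour cell markers 0 were called by the DESeq2 test and 2 were higher at an unadjusted p under 0.05. Of 17 housekeeping genes, 3 fell and 1 rose (17.6% and 5.88%), with Tubb5 at -0.60, Ywhaz at -0.33 and Rpl13a at -0.71 against B2m at 0.47 in the authors' deposited table.

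The other sorted subsets came largely from the same tumours, as separate libraries, and their effects of irradiation were set side by side. TAM libraries came from 10 irradiated and 5 untreated tumours, of which 7 and 5 also gave granulocytes, and inflammatory monocyte libraries from 9 and 5, of which 6 and 5 did. In TAM 26.4% of tested genes were called (13.9% higher, 12.5% lower) and in inflammatory monocytes 5.9% (4.13% higher, 1.77% lower). Of the genes that rose in granulocytes, 492 also rose in TAM (42.9% of granulocyte calls, 21.3% of TAM calls), and of those that fell 616 also fell in TAM (39.7% and 29.4%). A further 193 genes were called lower in granulocytes and higher in TAM, 12.4% of the granulocyte calls, and 9 the other way round. With inflammatory monocytes, 266 genes rose in both (23.5% of granulocyte calls, 44.4% of monocyte calls) and 127 fell in both (8.31% and 49.4%).

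Opposite effects were tested by the larger of the p-values of both subsets where the Wald statistics differ in sign, and the values were adjusted by Benjamini-Hochberg over the genes with tests in both. Against TAM, 15 of 15679 genes passed (0.0957%), all lower in granulocytes and higher in TAM, and 489 had an unadjusted p under 0.05. Against inflammatory monocytes 0 of 14506 passed (0.0%), and 66 had an unadjusted p under 0.05. Leading in this test were Braf (log2 change -1.41 in granulocytes and 0.99 in TAM, adjusted p = 0.00163) and Gla (-1.24 and 1.09, adjusted p = 0.00163) in the authors' deposited tables. Cpeb2, a regulator of translation, had -1.43 and 1.12, the kinase gene Sik1 -0.95 and 1.26, and Socs3 -1.16 and 1.09 in granulocytes and TAM by the authors' deposited tables. Tnfaip6, a hyaluronan-binding protein gene, had -1.29 and 1.62, Atf3 -0.85 and 0.78, Csrnp1 -1.06 and 1.14, the chromatin remodeller gene Chd7 -1.01 and 0.90 and Mcl1 -0.63 and 0.98 by the authors' deposited tables.

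The immediate early, tumour neutrophil state and glycolysis lists had mostly lower calls in granulocytes and higher calls in TAM. In TAM 25 of 29 immediate early genes rose, as did 14 of 18 tumour neutrophil state genes, against 2 and 1 in granulocytes, where 10 and 7 fell. In TAM 16 of 35 glycolysis and hypoxia response genes rose, and 9 fell in granulocytes. Il1b had log2 changes of -0.71 in granulocytes and 1.50 in TAM, and Cebpb of -0.69 and 1.05, in the authors' deposited tables. Of 78 ribosomal protein genes tested in granulocytes 6 fell, while 70 of 79 fell in TAM. Their Wald statistics were negative in 69 cases in granulocytes and in 76 in TAM. Of 46 oxidative phosphorylation genes 0 were called in granulocytes by the DESeq2 test (1 at an unadjusted p under 0.05) and 36 fell in TAM. Differences between subsets in these lists were not tested.

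**Figure D4:**
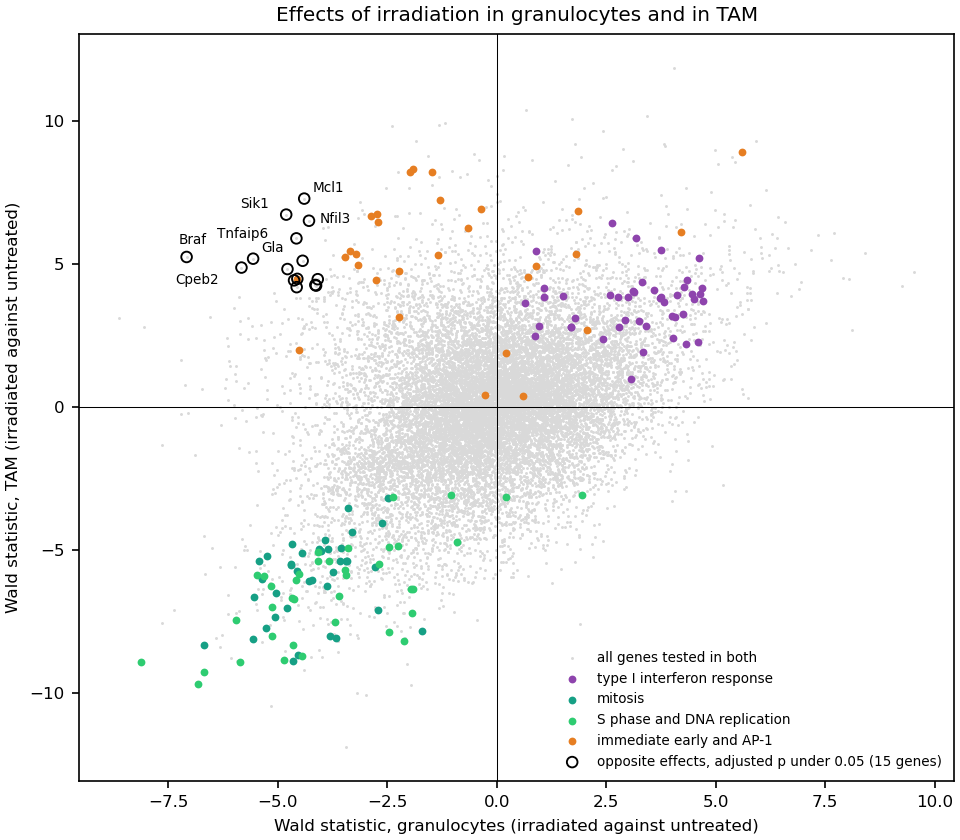
Points are the 15679 genes tested in both subsets, with the Wald statistic of irradiated against untreated in granulocytes on the x axis and in TAM on the y axis. Colours mark 4 lists, and black rings mark the 15 genes with opposite effects, all at upper left. Interferon genes lie at upper right, mitosis and S phase genes at lower left and most immediate early genes in the upper part.

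**Figure D5:**
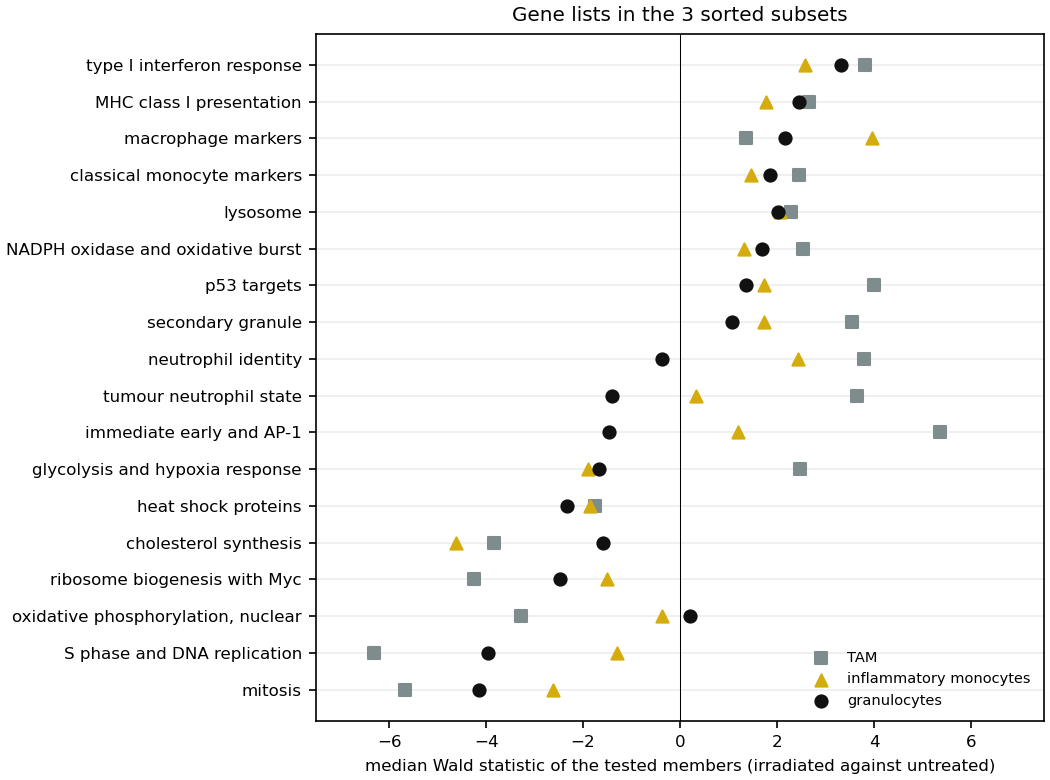
Symbols give the median Wald statistic of each list's tested members, for granulocytes (circles), inflammatory monocytes (triangles) and TAM (squares), with positive values higher after irradiation. The immediate early, tumour neutrophil state and glycolysis lists lie below 0 in granulocytes and above 0 in TAM.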

How the data were processed

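Total RNA of sorted granulocytes was extracted by column, and 150 pg of cDNA entered each Nextera XT library, per the labels' protocols. Such libraries are unstranded, so reads of overlapping antisense genes cannot be told apart. The submitters' processing notes name the genome build mm39 (GRCm39), DESeq2 1.28.1 under R 4.0.2, the aligner STAR 2.7.6a and the read trimmer fastp 0.20.1. The sources used here do not give read counting or annotation.

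The authors deposited a table per subset. The authors' mean normalised count, a signal over the libraries of all subsets, is identical in the 3 tables. The deposited log2 change was read as shrunken, since 146 tested granulocyte genes (0.931%) have a fold opposite in sign to their Wald statistic, 0 of them called. The Wald statistic is a score from the authors, and the deposited p-value equals its two-sided normal p within 0.002 on the log10 scale. Adjusted p-values were deposited for genes with a mean of at least 3.96 in granulocytes.

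Calls, list counts, medians and the test of opposite effects were computed from these tables with Python 3.11.15, pandas 2.3.3, numpy 2.4.6 and scipy 1.17.1, without a new fit, and tested on simulated statistics. Nothing says whether libraries of a group came from separate mice beyond their tumour numbers. The mean normalised count is shared by the subsets, so the authors may have fitted all subsets together. The p-values may then rest on the spread of libraries of the other subsets as well as of the granulocytes. Whether that fit allowed for libraries of the same tumour is not given. The comparison, the 51 gene lists (1142 symbols, 1135 found, 1104 tested in granulocytes, 72 in more than 1 list) and the rules were chosen with earlier results of these data known. Named genes were, in each direction, the 15 called genes of smallest adjusted p with a fold of at least 1 on the log2 scale and a mean of 50 or more, leaving out predicted, RIKEN and clone names. To these came up to 4 called members per list and direction, or the 2 of highest mean where none was called, all neutrophil list members, and the 10 leading genes of each test of opposite effects. Chosen after their values were seen were Adgre1, Aurkb, Bcl2a1b, C1qa, C1qb, C1qc, Casp1, Ccl3, Ccl4, Ccng1, Cdkn1a, Chp1, Csf3, Cxcl2, Cxcl3, Folr2, Fos, H2-K1, Hk2, Hspa1a, Hspa1b, Il1rn, Il6, Irf7, Isg15, Marco, Mdm2, Mef2d, Mki67, Mrc1, Nfkbia, Oas3, Phlda3, Plk1, Prim1, Prxl2c, Rsad2, Slc49a4, Tnf, Vegfa and Zfp36. Values of some list members are not reported here. Promoter sequences are RefSeq's, build GRCm38.p6, matched by symbol.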

Additional observations from a re-analysis of the deposited data

Results flagged for a closer look

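In 15 genes the effects of irradiation were opposite in granulocytes and TAM at an adjusted p under 0.05 of the test of opposite directions, which is 0.0957% of the genes tested in both. All 15 fell in granulocytes and rose in TAM. As log2 changes in granulocytes and in TAM, Braf, a kinase of the MAP kinase pathway, had -1.41 and 0.99 (adjusted p = 0.00163), Gla, a lysosomal galactosidase, had -1.24 and 1.09 (adjusted p = 0.00163) and Cpeb2, a regulator of translation, had -1.43 and 1.12 (adjusted p = 0.00552), the authors' deposited tables giving the folds. In the same order, Sik1, a kinase, had -0.95 and 1.26 (adjusted p = 0.00562), Socs3, a feedback inhibitor of cytokine signalling, had -1.16 and 1.09 (adjusted p = 0.00562) and Tnfaip6, a hyaluronan-binding protein, had -1.29 and 1.62 (adjusted p = 0.0127), the authors' deposited tables giving the folds. Next, Atf3, a stress-induced transcription factor, had -0.85 and 0.78 (adjusted p = 0.0163), Csrnp1, a nuclear protein, had -1.06 and 1.14 (adjusted p = 0.0165) and Chd7, a chromatin remodeller, had -1.01 and 0.90 (adjusted p = 0.0165), the authors' deposited tables giving the folds. By the same measures, Mcl1 had -0.63 and 0.98 (adjusted p = 0.0175), Nfil3 had -0.86 and 1.23 (adjusted p = 0.0261) and Prxl2c had -0.88 and 0.76 (adjusted p = 0.0357), the authors' deposited tables giving the folds. Last, Slc49a4 had -0.75 and 0.73 (adjusted p = 0.0421), Mef2d had -0.65 and 0.63 (adjusted p = 0.0421) and Chp1 had -0.71 and 0.73 (adjusted p = 0.0463), the authors' deposited tables giving the folds. In inflammatory monocytes none of the 15 was called, with log2 changes from -0.36 for Nfil3 to 0.31 for Gla in the authors' deposited table. The subsets share tumours, and the test takes each subset's own p-value. Prxl2c, Slc49a4, Mef2d and Chp1 were named after their values were seen.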

How the results depend on the processing

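As reported, 2699 genes were called in granulocytes, 1147 higher and 1552 lower. At an adjusted p under 0.01 there were 1420 (571 higher, 849 lower), and with an absolute log2 change of at least 1 as well 1158 (413 and 745). With Wald statistics divided by their robust SD the count was 0 (0 and 0). An adjusted p under 0.1, a mean of at least 50, adjustment over all genes that have a p-value, re-centring and the direction of the fold gave counts from 2017 to 3678. Re-centring on the median gave 1238 higher and 1466 lower genes, 54.2% lower in place of 57.5%. Opposite effects in granulocytes and TAM numbered 15, and 43 at an adjusted p under 0.1, 17 with a mean of at least 50 and 11 after re-centring. Against inflammatory monocytes the count was 0 under those settings as well. Of 353 genes chosen by the naming rule or afterwards that have an adjusted p, 244 were called. Of the called ones, 109 were lost with an absolute log2 change of at least 1, 63 at 0.01, 26 with adjustment over every gene and 1 with re-centring, and no called gene changed direction under any of these settings. The robust SD setting left none of them called, and so no member of any list. No paired analysis was possible because untreated and irradiated tumours carry different numbers and single-library values were not analysed here. For the same reason no replicate could be left out in turn, so whether a single library decides a call was not tested. Depth per library is unknown. Calls rose with the mean count, from 4.19% of tested genes below a mean of 10, so genes of low mean had less chance of a call.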

Other observations

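Several lists not described above had few calls in granulocytes, where 7.32% of all tested genes rose and 9.9% fell. Of 31 proteasome genes 2 rose in granulocytes, the core subunit gene Psma6 (log2 change 0.55) and the regulatory ATPase gene Psmc4 (0.25) in the authors' deposited table. In TAM 22 of 31 proteasome genes fell, against 12.5% of all genes tested there. Of 23 antioxidant targets of NRF2, 3 rose and 1 fell, with Keap1, the inhibitor of NRF2, at 0.75, the glutathione peroxidase gene Gpx1 at 0.63 and Prdx5 at 0.47, and the thioredoxin reductase gene Txnrd1 at -0.81, in the authors' deposited table. The cytoskeleton and migration list had 1 higher and 2 lower of 28 (3.57% and 7.14%). Capg, which caps actin filaments, had 0.71 (adjusted p = 2.86e-11), and Actg1 had -1.03 and the myosin light chain gene Myl6 -0.40 in the authors' deposited table.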
